A study of Mus musculus with 24 samples.

Results

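The genes of oxidative phosphorylation, from both the nuclear and the mitochondrial genome, were described in microglia that carried little or much lipofuscin, with and without progranulin. Members were the rows of the deposited count table whose symbol belongs to a subunit family of respiratory complexes I to IV or of ATP synthase (complex V), with no pseudogene suffix and a mean deposited level over all 24 libraries of at least 5 CPM, the usual read count scaled to a common library size. Of 56980 rows, 118 matched the symbols, 14 of these carried the pseudogene suffix and 11 others lay under 5 CPM, which left 93 members. They comprised 81 nuclear genes (37 of complex I, 4 of complex II, 8 of complex III, 15 of complex IV and 17 of complex V) and 12 genes of mitochondrial DNA, here called mt-encoded (6 of complex I, 1 of complex III, 3 of complex IV and 2 of complex V). The mt-encoded subunit mt-Nd6 lay under the limit at 2.82 CPM. All 93 members passed the filter on low counts, as did 14090 genes in all.

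In oxidative phosphorylation, complexes I and II pass electrons from NADH and succinate to ubiquinone. Complex III hands them to cytochrome c and complex IV (cytochrome c oxidase) to oxygen. Complexes I, III and IV pump protons, and ATP synthase uses the gradient to make ATP. Every complex except complex II mixes subunits from both genomes, and some subunits of complex IV exist as a widely expressed and a muscle isoform. Microglia, the resident macrophages of the brain, use this pathway beside glycolysis and can shift between them on activation.

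The mice were 19 months old, on a C57Bl/6J background, and every one of them, controls included, carried the humanized transferrin receptor knock-in hTfR mu/hu. GrnKO mice were Grn-/- and so lacked progranulin, a secreted protein that reaches the lysosome. WT mice kept Grn. CD11b+ CD45+ cells were sorted by autofluorescence at 488 nm, a readout of the lysosomal residue lipofuscin, into a high and a low bin of 1000 cells each, after dissociation with inhibitors of transcription (actinomycin D) and translation (anisomycin). The 4 groups of 6 animals were thus GrnKO high, GrnKO low, WT high and WT low, with both bins from each animal.

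Libraries held 12.9 to 46.8 M (mega) counts. Grn lay between 0.520 and 20.3 CPM in GrnKO libraries and between 439 and 1480 CPM in WT libraries, so 0 libraries went against their genotype label. Xist and Y-linked transcripts opposed the sex labels in all 12 animals, and the label entered the model only as a class of 3 animals per genotype. All 12 microglia markers lay above 1 CPM in every library, with sums of 25600 to 42500 CPM in GrnKO and 15000 to 43300 CPM in WT. The lowest microglia sums were those of WT animal 1, at 22300 CPM in its high and 15000 CPM in its low library. Of 12 choroid plexus markers, which belong to the epithelium that secretes cerebrospinal fluid, 9 were testable, 0 were absent from every library, and their sums reached 83200 CPM in the low library of WT animal 9, 28900 CPM in that of GrnKO animal 8, 25800 CPM in that of WT animal 1 and 20900 CPM in the high library of WT animal 1. Elsewhere these sums stayed between 34.4 and 1900 CPM in GrnKO high, 144 and 1690 CPM in GrnKO low, 722 and 2010 CPM in WT high and 18.5 and 315 CPM in WT low. WT animal 1 also stood apart in its mitochondrial transcripts, with 7.91% of counts in its high and 9.70% in its low library, against 1.46 to 2.96% elsewhere. Many results that touch these libraries are therefore given with and without them, and the 4 with over 20000 CPM of choroid plexus markers are called choroid-rich. Role groups, complex II sums and the sets of other pathway genes are given with all libraries only.

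Cox6a2 (ENSMUSG00000030785) was the one member that passed the threshold in any comparison (edgeR, Benjamini-Hochberg adjusted p under 0.05 over all genes tested). It encodes the isoform of complex IV subunit VIa that is typical of heart and skeletal muscle, while Cox6a1 (ENSMUSG00000041697) encodes the widely expressed isoform. In the low bin, Cox6a2 had a lowest, median and highest level of 187, 333 and 530 CPM in GrnKO low, against 64.3, 106 and 167 CPM in WT low. In the high bin it had 352, 472 and 763 CPM in GrnKO high, against 93.1, 153 and 333 CPM in WT high. The genotypes did not overlap in either bin, whereas the bins of one genotype did. Cox6a2 averaged 323 ± 122 CPM in GrnKO low and 106 ± 38.1 CPM in WT low (SD, n = 6 each), a log2 fold change (log2FC) of 1.68 with a standard error (SE) of 0.277 and an edgeR adjusted p of 0.00205. It averaged 507 ± 145 CPM in GrnKO high and 192 ± 93.2 CPM in WT high, for which edgeR gave a log2FC of 1.43 (SE 0.274) and an adjusted p of 0.0187. As background, 0.27% of all genes tested were called higher in GrnKO low than in WT low and 0.135% in GrnKO high than in WT high, and the groups of 0.774% and 0.724% of genes did not overlap in that direction. In the low bin the call held under every alternative run, with log2FC from 1.42 to 1.85 and adjusted p from 3.06e-10 to 0.0424. In the high bin it was lost when animal 2, 3, 5, 7 or 11 was left out (log2FC 1.33 to 1.43, edgeR adjusted p 0.0522 to 0.0734). Without the 4 choroid-rich libraries its log2FC there was 1.60 (SE 0.270, edgeR adjusted p = 0.00274).

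The coding sequences of these isoforms are shown because the result rests on telling their reads apart. They come from GENCODE release M21 on GRCm38, not the authors' build. Cox6a2 lies on the minus strand at chr7:128205435-128206387 and Cox6a1 on the minus strand at chr5:115345642-115348981. In a global alignment, 183 of 285 aligned positions were identical (64.2%), and the longest identical run was 12 bases. Capitals mark positions that differ or have no partner in the alignment. Cox6a2 is printed whole (294 bases) and Cox6a1 from base 40 to base 339, the end of its coding sequence.
Cox6a2: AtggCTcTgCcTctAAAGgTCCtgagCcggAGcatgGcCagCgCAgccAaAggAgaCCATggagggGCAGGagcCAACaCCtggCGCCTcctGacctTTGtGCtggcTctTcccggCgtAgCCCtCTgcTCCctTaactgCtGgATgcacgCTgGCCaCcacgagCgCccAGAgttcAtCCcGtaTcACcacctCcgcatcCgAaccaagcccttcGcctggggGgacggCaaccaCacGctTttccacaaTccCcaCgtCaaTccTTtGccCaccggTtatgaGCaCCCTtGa
Cox6a1: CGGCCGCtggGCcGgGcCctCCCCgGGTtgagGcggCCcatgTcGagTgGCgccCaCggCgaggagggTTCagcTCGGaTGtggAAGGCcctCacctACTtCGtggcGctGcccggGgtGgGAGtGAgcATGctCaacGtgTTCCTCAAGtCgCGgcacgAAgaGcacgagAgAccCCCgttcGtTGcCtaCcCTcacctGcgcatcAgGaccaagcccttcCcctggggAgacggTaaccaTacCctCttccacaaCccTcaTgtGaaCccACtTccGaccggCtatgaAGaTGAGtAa
The matching stretches are short throughout, also towards the 3′ ends, where the capitals thin out.

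Cox6a1 itself had 1190, 1320 and 2050 CPM (lowest, median, highest) in GrnKO high, 1030, 1440 and 1770 CPM in GrnKO low, 867, 1260 and 2710 CPM in WT high and 876, 951 and 1620 CPM in WT low. These ranges overlap between all 4 groups. The log2 ratio of Cox6a2 to Cox6a1, taken within a library without correction for length, averaged -1.51 ± 0.277 in GrnKO high, -2.21 ± 0.612 in GrnKO low, -3.01 ± 0.178 in WT high and -3.46 ± 0.351 in WT low (SD, n = 6 each). GrnKO high libraries lay between -1.98 and -1.16 and WT high libraries between -3.22 and -2.69, without overlap. GrnKO low libraries lay between -3.05 and -1.58 and WT low libraries between -3.80 and -2.93, where the ends overlap. In these bulk samples, more cells of a kind that expresses a gene and more of its RNA per cell cannot be told apart.

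**Figure D1:**
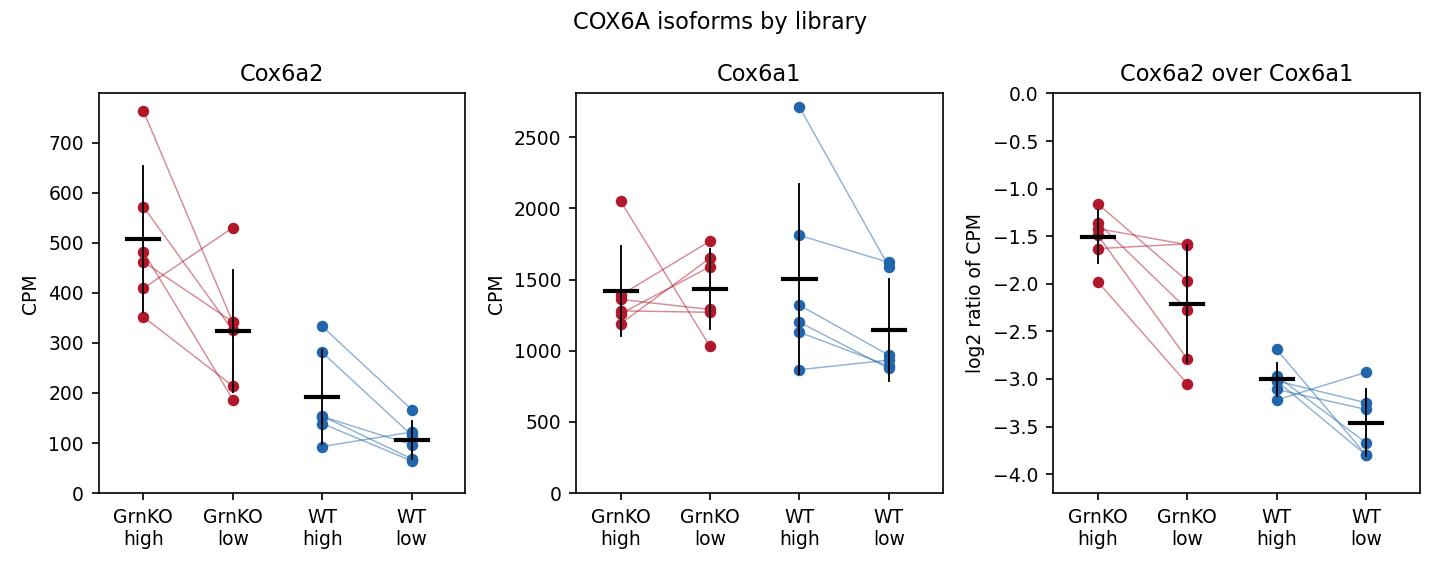
Levels of Cox6a2 and Cox6a1 (CPM) and the log2 ratio of their CPM in each library, by group; points are libraries, thin lines join the 2 libraries of an animal, and black bars are the mean ± SD of 6 animals. Cox6a2 lies at 187 CPM or above in every GrnKO library and at 167 CPM or below in every WT low library, while the Cox6a1 groups overlap.

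The other muscle or tissue-restricted isoforms of complex IV did not share this pattern. Cox8b, the muscle isoform of subunit VIII, had 0.112, 6.28 and 33.1 CPM (lowest, median, highest) in GrnKO high, 0.327, 4.47 and 169 CPM in GrnKO low, 0.216, 9.65 and 153 CPM in WT high and 0.071, 0.424 and 470 CPM in WT low. Its highest libraries were the low libraries of WT animal 1 (470 CPM), WT animal 9 (254 CPM) and GrnKO animal 8 (169 CPM) and the high library of WT animal 1 (153 CPM), the same 4 that led in choroid plexus markers. What part those cells had in these values was not tested. Cox7a1, the muscle isoform of subunit VIIa, was highest in WT animal 1 low (53.8 CPM), WT animal 1 high (30.5 CPM), GrnKO animal 8 low (24.7 CPM) and WT animal 9 low (22.1 CPM), and at or under 8.84 CPM elsewhere. Cox6b2, the testis isoform of subunit VIb, reached 83.3 and 83.7 CPM in the low libraries of WT animals 1 and 9, 23.7 CPM in WT animal 1 high and 14.3 CPM in GrnKO animal 8 low. Their log2FC in GrnKO low against WT low were 1.02 (SE 2.51) for Cox8b, 0.12 for Cox7a1 and -1.15 (SE 0.996) for Cox6b2, none of them called. These 3 genes also had the widest spread of all members, with biological coefficients of variation of 1.82, 1.27 and 0.966, against a median of 0.338 for nuclear members, 0.446 for mt-encoded members and 0.586 for all tested genes of at least 5 CPM. The further isoforms Cox4i2 and Cox8c had 0.117 and 0 CPM and were no members.

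In the low bin, the nuclear members as a group had slightly positive log2FC and the mt-encoded members negative ones, with no call besides Cox6a2. The negative values of the mt-encoded members depended on WT animal 1. Of 81 nuclear members, 60 had a positive log2FC in GrnKO low against WT low (median 0.17, against -0.02 for all tested genes of at least 5 CPM), and 1 was called higher and 0 lower, where 0.27% of all genes were called higher and 0.0568% lower. At an unadjusted p under 0.05, 8 were higher and 1 lower, while 5.07% of all genes were higher and 5.12% lower by that rule. All 12 mt-encoded members had a negative log2FC (median -0.53), and 0 were called by edgeR, with 1 lower at an unadjusted p under 0.05. Their summed level nevertheless had the higher median in GrnKO low, at 17600 CPM against 14300 CPM in WT low. Without WT animal 1 their median log2FC was -0.04, and without the 4 choroid-rich libraries it was 0.09. Erythrocyte markers (5 of 5 tested, 3 over 1 CPM in every library) did not overlap in this comparison, with sums of 54.5 to 37600 CPM in GrnKO low and 4.68 to 37.8 CPM in WT low; in the high bin they were 16.0 to 11100 CPM in GrnKO high and 16.8 to 6620 CPM in WT high. T and NK cell markers summed to 439 to 1150 CPM in GrnKO low and 105 to 602 CPM in WT low. What part these cells had in the members' levels was not tested.

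By role, the 7 nuclear core subunits of complex I, which hold its iron-sulfur clusters and flavin, had a median log2FC of 0.42 in the low bin, against 0.17 for its 30 accessory subunits. Ndufv1, the subunit that binds NADH and flavin, had 56.4, 90.9 and 117 CPM (lowest, median, highest) in GrnKO low, against 13.5, 49.1 and 89.1 CPM in WT low, with overlap (log2FC 0.96, SE 0.336, adjusted p = 0.255). Ndufs7, a core iron-sulfur subunit, had 250, 345 and 407 CPM in GrnKO low, against 114, 228 and 324 CPM in WT low (log2FC 0.59, SE 0.206, adjusted p = 0.255). Those groups overlapped only at their ends. Among accessory subunits, Ndufa2 (log2FC 0.56), Ndufv3 (0.57) and, in the other direction, Ndufc2 (-0.50) had an unadjusted p under 0.05. Ndufa4, a small subunit once placed in complex I and now in complex IV, had the most negative value among nuclear members after Cox6b2 (log2FC -0.68, SE 0.334, adjusted p = 0.493). Its highest WT low libraries were those of animals 1 and 9, at 4090 and 1700 CPM, while the other 4 lay between 750 and 876 CPM and GrnKO low between 619 and 1070 CPM.

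In the remaining complexes, Uqcr11, a small subunit of complex III, had 514, 719 and 954 CPM in GrnKO low, against 299, 368 and 985 CPM in WT low (log2FC 0.60, SE 0.304, adjusted p = 0.517). In complex IV, Cox7a2l had 135, 178 and 225 CPM in GrnKO low, against 90.9, 125 and 150 CPM in WT low (log2FC 0.54, SE 0.171, adjusted p = 0.190). Cox4i1, the regulatory subunit IV, had 934, 1160 and 1520 CPM in GrnKO low, against 580, 742 and 1480 CPM in WT low (log2FC 0.55, SE 0.211, adjusted p = 0.313). Of the 6 WT low libraries, 5 lay under every GrnKO low library for Cox4i1, and that of animal 9 at 1480 CPM did not. Cox6b1 had a log2FC of 0.46, and Cox7c, at -0.54, was among the 3 most negative nuclear members. Sdhb, the iron-sulfur subunit of complex II, had a log2FC of 0.39 (adjusted p = 0.615). In complex V, Atp5b, the catalytic beta subunit, had a log2FC of 0.25 (SE 0.195), and the 17 members ranged from -0.43 to 0.29.

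The mt-encoded members ranged in the low bin from mt-Nd2, a complex I membrane subunit, to mt-Co3, subunit 3 of complex IV. Of these, mt-Nd2 had 128, 166 and 260 CPM (lowest, median, highest) in GrnKO low, against 135, 169 and 1890 CPM in WT low (log2FC -1.02, SE 0.585, adjusted p = 0.600). Here the medians are close and 1 WT low library, that of animal 1, stands at the top. For mt-Co3 the levels were 4860, 6920 and 7690 CPM in GrnKO low, against 4730, 5100 and 22000 CPM in WT low (log2FC -0.24, SE 0.337), so the median was higher in GrnKO low and the highest library again was WT animal 1. The smallest p among mt-encoded members was that of mt-Nd3 (log2FC -0.83, SE 0.349, adjusted p = 0.377). With strand handling not given in the sources used here, reads of overlapping genes cannot be separated. The pairs mt-Nd4l with mt-Nd4 and mt-Atp8 with mt-Atp6 overlap on shared transcripts, mt-Nd5 lies opposite mt-Nd6, and nuclear copies may take some reads, so the values of single mt-encoded genes are uncertain.

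**Figure D2:**
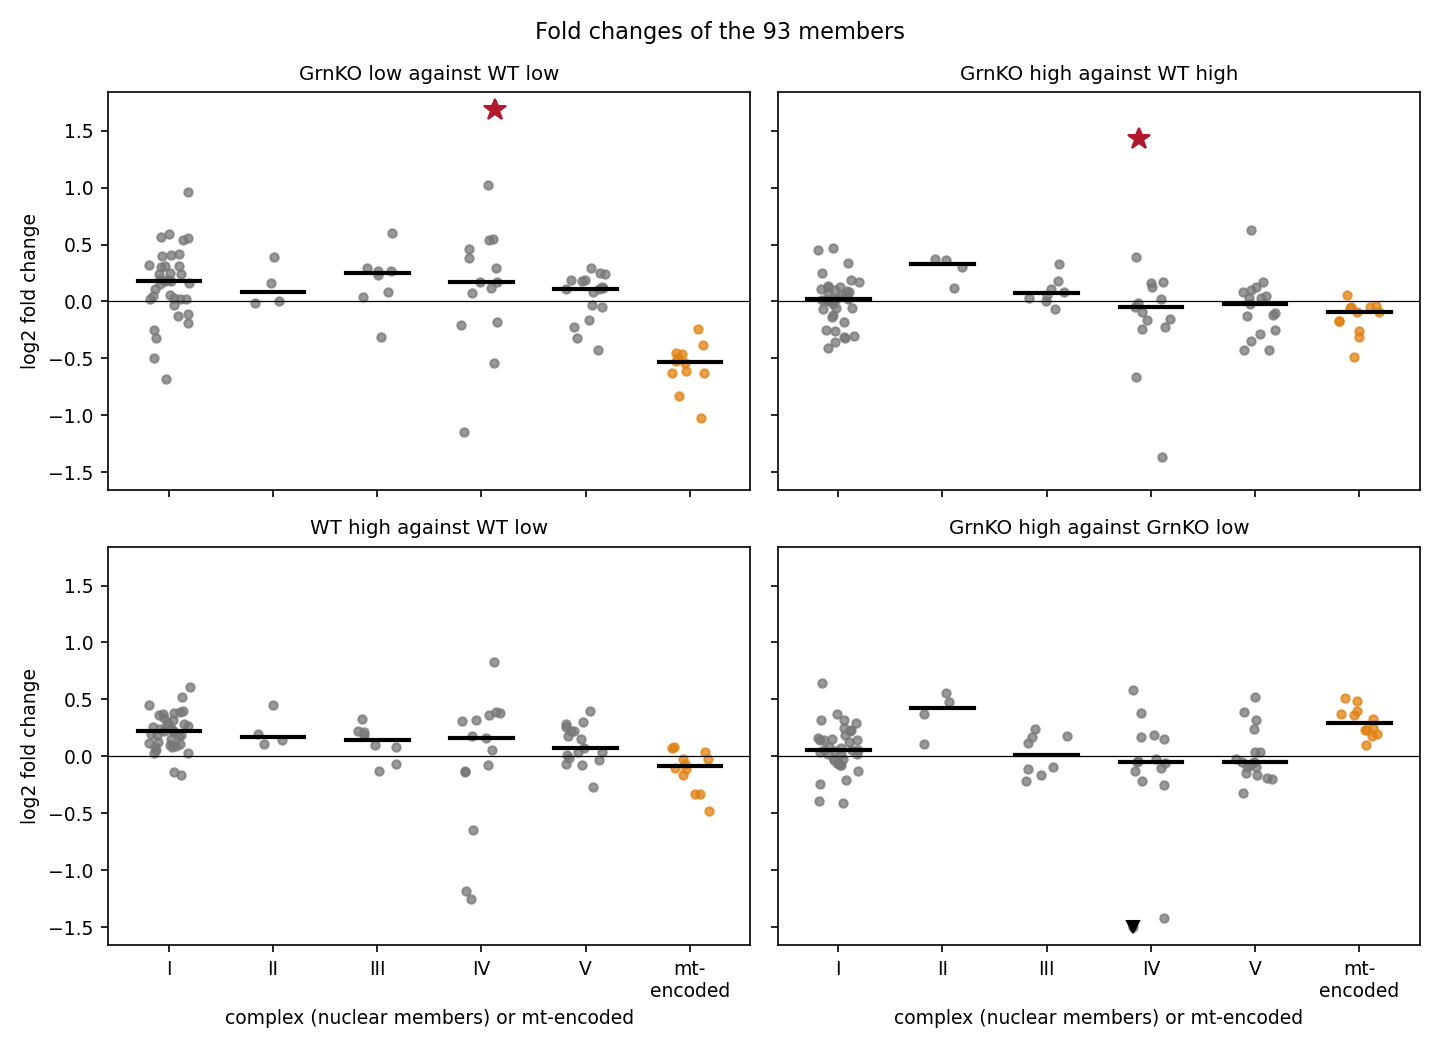
Log2 fold changes of the 93 members in 4 comparisons; grey points are nuclear members by complex, orange points the 12 mt-encoded members, horizontal bars medians, red stars called genes (edgeR adjusted p under 0.05) and the black triangle Cox8b, drawn at the lower limit of the axis (its value is -3.64). Only Cox6a2 is called, mt-encoded members lie below 0 in GrnKO low against WT low and above 0 in GrnKO high against GrnKO low. Without WT animal 1, the mt-encoded median in GrnKO low against WT low was -0.04.

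The summed levels show which libraries set these medians. Nuclear members summed to 22110, 27300 and 29710 CPM (lowest, median, highest) in GrnKO low, against 17670, 19300 and 45850 CPM in WT low. WT low animals 3, 5, 7 and 11 lay between 17670 and 20320 CPM, under every GrnKO low library, and WT low animals 1 and 9 lay at 45850 and 33370 CPM, above every GrnKO low library. In the high bin the nuclear sums were 23860, 26700 and 35700 CPM in GrnKO high, against 18830, 23000 and 56780 CPM in WT high. The mt-encoded sums were 15480, 21700 and 27040 CPM in GrnKO high, 12220, 17600 and 20090 CPM in GrnKO low, 12390, 15300 and 69310 CPM in WT high and 13390, 14300 and 66690 CPM in WT low. Both highest values belong to WT animal 1.

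**Figure D3:**
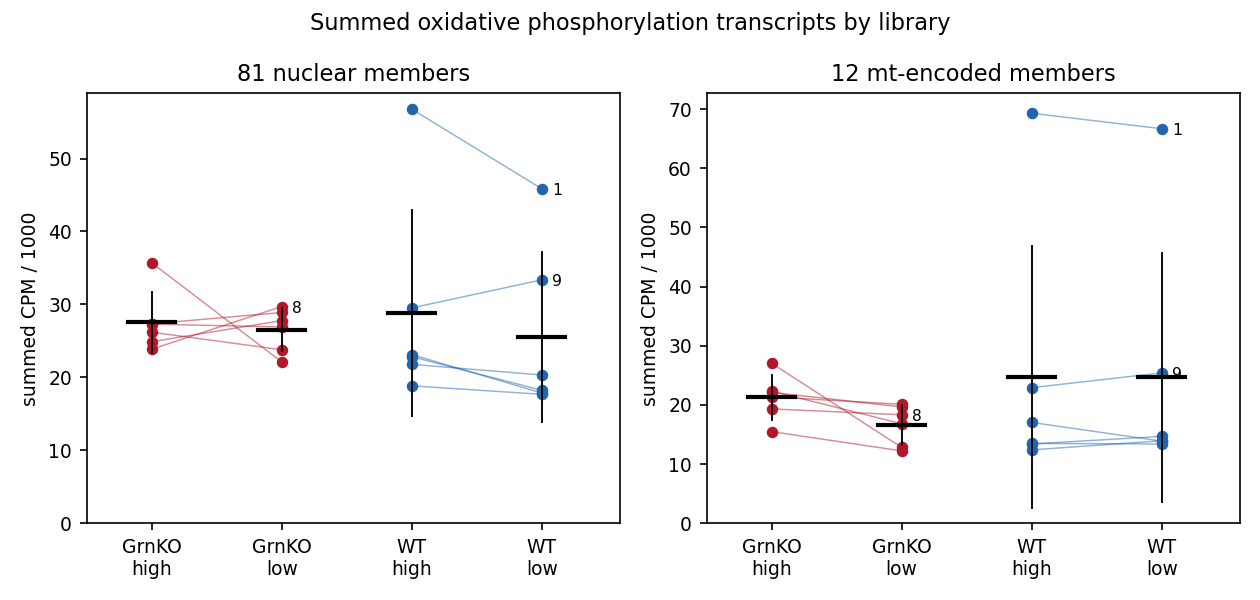
Summed CPM (in units of 1000 CPM) of the 81 nuclear and the 12 mt-encoded members in each library, by group; points are libraries, thin lines join the 2 libraries of an animal, black bars are mean ± SD (n = 6), and numbers mark animals 1, 8 and 9 in the low bin. WT animal 1 reaches 66690 CPM or more in mt-encoded members in both bins, and 4 of 6 WT low libraries lie under every GrnKO low library in nuclear members.

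Without WT animal 1, 69 of 81 nuclear members had a positive log2FC in GrnKO low against WT low (median 0.27), 27 were higher and 0 lower at an unadjusted p under 0.05 (6.4% of all genes were higher), and Cox6a2 (log2FC 1.80, edgeR adjusted p = 0.000346) and Ndufv3, a small complex I subunit (log2FC 0.79, SE 0.174, edgeR adjusted p = 0.0260), were called, beside 0.641% of all genes called higher. The mt-encoded members then had a median of -0.04, with 4 of 12 positive. In the high bin without that animal, 75 of 81 nuclear members were positive (median 0.20), 12 of 12 mt-encoded members were positive (median 0.41, 6 of them with an unadjusted p under 0.05, as had 3.73% of all genes in that direction), and Ndufa1, a small membrane subunit needed for complex I assembly, was called beside Cox6a2 (log2FC 0.89, SE 0.194, edgeR adjusted p = 0.0349), where 0.244% of all genes were called higher. The mt-encoded medians in both bins thus moved by more than the median standard error of these genes when 1 animal was left out.

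Without the 4 choroid-rich libraries, 46 of 81 nuclear members were higher in GrnKO low than in WT low at an unadjusted p under 0.05 and 0 were lower, while 6.99% of all genes were higher and 4.96% lower by that rule. Of the 81, 75 were positive, with a median log2FC of 0.45 against 0.01 for all genes tested. Ndufa1 (log2FC 0.96, SE 0.179, edgeR adjusted p = 0.00814), Ndufv3 (0.94, adjusted p = 0.0136), Uqcr11 (0.97, adjusted p = 0.0465) and Cox6a2 (1.79, adjusted p = 0.00314) were called, against a background of 0.646% of genes. For 25 of 81 nuclear members the 5 remaining GrnKO low libraries lay above all 4 remaining WT low libraries, as did 2.78% of all genes. Ndufa1 shows how: its GrnKO low libraries lay between 252 and 371 CPM, against 145 to 180 CPM in WT low animals 3, 5, 7 and 11, 689 CPM in WT low animal 1 and 351 CPM in WT low animal 9. In the high bin without these libraries, 14 nuclear members were higher (3.94% of all genes were) and 0 lower at an unadjusted p under 0.05, and Ndufa1 (log2FC 0.90, adjusted p = 0.00448) and Cox6a2 were called, against 0.299% of genes. Of the astrocyte markers, all 12 were tested, 4 lay over 1 CPM in every library, and their sums, which overlap between genotypes in both bins, were 212 to 362 CPM in GrnKO high, 151 to 456 CPM in GrnKO low, 314 to 2240 CPM in WT high and 363 to 1630 CPM in WT low. What part these markers' cells had in the members' levels was not tested. The cytosolic ribosomal proteins, a second set of abundant short transcripts, were read only from the fit that keeps all 24 libraries. There, 76 of 82 had a positive log2FC in GrnKO low against WT low (median 0.36). Of them 0 were called, where 0.27% of all genes were called higher.

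**Figure D4:**
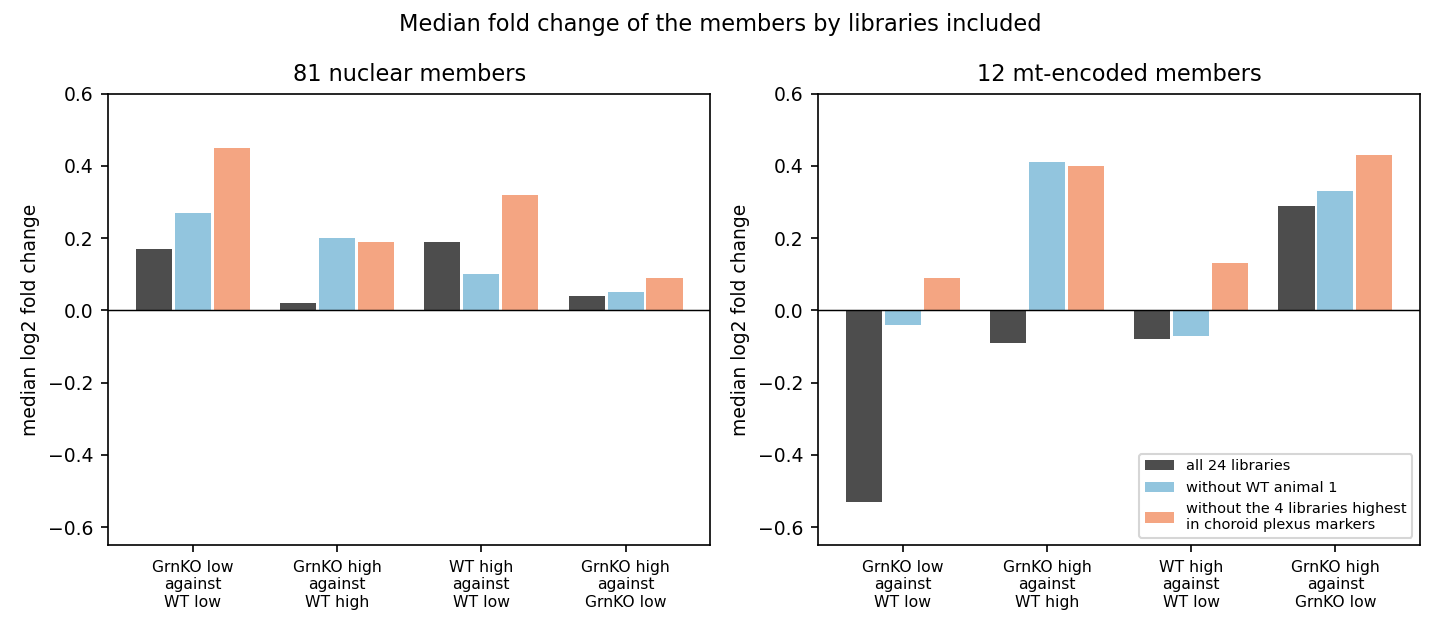
Median log2 fold change of the 81 nuclear and 12 mt-encoded members in 4 comparisons with all 24 libraries, without WT animal 1 and without the 4 choroid-rich libraries; bars start at 0. In GrnKO low against WT low, the nuclear median goes with these settings through 0.17, 0.27 and 0.45, and the mt-encoded median through -0.53, -0.04 and 0.09.

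With all libraries, the median log2FC of the members in GrnKO high against WT high lay near 0, and only Cox6a2 was called. This depended on WT animal 1, without which the medians were 0.20 for nuclear and 0.41 for mt-encoded members. The values that follow are those with all libraries. Of 81 nuclear members, 47 had a positive log2FC in GrnKO high against WT high (median 0.02). While 0.135% of all genes were called higher and 0.0284% lower, 1 member was called higher and 0 lower, and 3 were higher and 0 lower at an unadjusted p under 0.05, against 2.82% and 3.48% of all genes. Besides Cox6a2 these were Cox5a, a matrix-side subunit of complex IV (log2FC 0.39, SE 0.147, adjusted p = 0.486), and Sdhc, a membrane anchor of complex II (log2FC 0.37, SE 0.165, adjusted p = 0.702). Cox5a had 512, 550 and 611 CPM (lowest, median, highest) in GrnKO high, against 360, 387 and 542 CPM in WT high. The lower end of GrnKO high thus lay within the WT high range, whose other 5 libraries were at or under 485 CPM. Atp5g2, one of the genes for the c-ring of ATP synthase, had a log2FC of 0.63 (SE 0.322). The lowest values were those of Cox8b (-1.37, SE 1.85), Cox7a1 (-0.66, SE 1.18) and Atp5k, a small subunit of ATP synthase (-0.43, SE 0.434). In complexes I and III the smallest p values were those of Ndufa10 (log2FC 0.45, SE 0.255) and Uqcrc2 (0.33, SE 0.206). Of the mt-encoded members, 1 of 12 was positive (median -0.09), from mt-Nd2 at -0.49 (SE 0.569) to mt-Co2 at 0.06 (SE 0.311).

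The next comparison set the high against the low bin of a genotype, in a fit that held no term for the animal. With a fixed block per animal instead, 11 nuclear members were higher in WT high and 0 lower at an edgeR unadjusted p under 0.05. No mt-encoded member passed that rule, 8.89% of all genes did in either direction, and 0 members were called. Within WT but without that block, 66 of 81 nuclear members had a positive log2FC in WT high against WT low (median 0.19), yet 0 were called, where 0.0994% of all genes were called higher and 0.149% lower. At an unadjusted p under 0.05, 3 were higher (3.83% of all genes were) and 0 lower (4.42%). They were Cox6a2 (log2FC 0.83, SE 0.271, adjusted p = 0.282), Cox7a2l (0.36, SE 0.171) and Ndufa9, an accessory subunit of the hinge of complex I. Ndufa9 had 62.1, 211 and 237 CPM (lowest, median, highest) in WT high, against 57.6, 126 and 162 CPM in WT low (log2FC 0.61, SE 0.247, adjusted p = 0.477). Of the WT animals, 6 of 6 had the higher level in their high library, and without the 4 choroid-rich libraries it was called (log2FC 0.79, SE 0.184, edgeR adjusted p = 0.0498), where 26 nuclear members were higher and 0 lower at an unadjusted p under 0.05 (6.37% of all genes were higher; 0.292% were called higher). With all libraries, the core subunit Ndufs3 had a log2FC of 0.52 (SE 0.279), Atp5c1, the central stalk of ATP synthase, 0.40 (SE 0.226), and Uqcr11 0.33 (SE 0.296). The most negative nuclear members were Cox8b (-1.25, SE 2), Cox6b2 (-1.18, SE 0.933) and Cox7a1 (-0.65, SE 1.19). Of the mt-encoded members, 3 of 12 were positive (median -0.08), from mt-Nd3 (-0.48, SE 0.344) to mt-Atp6 (0.08, SE 0.370). Without both libraries of WT animal 1 the median was -0.07, and with any whole animal left out it stayed between -0.17 and -0.04. Without the low library of that animal alone, a setting added after the data were seen that keeps its high library at 69310 CPM, 12 of 12 were positive (median 0.49). Neutrophil markers summed to 230 to 2990 CPM in WT high and 1710 to 22800 CPM in WT low. T and NK cell markers summed to 74.2 to 188 CPM in WT high and 105 to 602 CPM in WT low. What part these cells had in the members' levels was not tested.

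Within GrnKO, 44 of 81 nuclear members had a positive log2FC in GrnKO high against GrnKO low (median 0.04) and 0 were called, where 0.0284% of all genes were called higher and 0.177% lower. At an unadjusted p under 0.05, 4 were higher (3.18% of all genes were) and 0 lower (4.64%): Cox6a2, Ndufc2, Sdhc and Sdhd. Ndufc2, an accessory subunit of complex I, had the largest value, with 446, 524 and 587 CPM (lowest, median, highest) in GrnKO high, against 253, 312 and 495 CPM in GrnKO low (log2FC 0.64, SE 0.207, adjusted p = 0.283). Of the GrnKO animals, 6 of 6 had more of it in their high library. Cox6a2 had a log2FC of 0.58 (SE 0.271, adjusted p = 0.607). The most negative values were those of Cox8b (-3.64, SE 2.17), Cox7a1 (-1.42, SE 1.21) and Ndufv1 (-0.41, SE 0.331). Uqcrfs1, the Rieske protein of complex III, had a log2FC of 0.24 (SE 0.288), and Atp5pb, of the peripheral stalk of ATP synthase, 0.39 (SE 0.201). All 12 mt-encoded members were positive (median 0.29), from mt-Nd4l (0.10, SE 0.592) to mt-Cytb, the mt-encoded subunit of complex III (0.51, SE 0.343), with 0 called. Their sum was larger in the high than in the low library in 6 of 6 GrnKO animals (mean log2 difference 0.36, SD 0.377) and in 3 of 6 WT animals (mean -0.02, SD 0.178). With a fixed block per animal, 9 nuclear and 6 mt-encoded members were higher in GrnKO high at an edgeR unadjusted p under 0.05. By that rule 0 were lower, 8.5% of all genes passed in either direction, and 0 members were called. Without the 4 choroid-rich libraries, 60 of 81 nuclear (median 0.09) and 12 of 12 mt-encoded members (median 0.43) were positive. Of each kind, 8 were higher and 0 lower at an edgeR unadjusted p under 0.05, beside 10.2% of all genes in either direction, and 0 were called. T and NK cell markers summed to 65.6 to 290 CPM in GrnKO high and 439 to 1150 CPM in GrnKO low, and neutrophil markers to 175 to 3690 CPM in GrnKO high and 3990 to 33100 CPM in GrnKO low. All 10 neutrophil and 11 of 12 T and NK cell markers were tested, with 3 and 1 of them over 1 CPM in every library, and their part in the members' levels was not tested.

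Complex II is encoded by the nucleus alone, and its summed level was higher in the high than in the low library of every animal. Its 4 subunits summed to 561.7, 628 and 694.9 CPM (lowest, median, highest) in GrnKO high, against 420.5, 482 and 544.3 CPM in GrnKO low, and to 440.1, 526 and 569.4 CPM in WT high, against 299.2, 428 and 502.1 CPM in WT low. The GrnKO bins did not overlap and the WT bins did. The sum was larger in the high than in the low library in 6 of 6 GrnKO animals (mean log2 difference 0.37, SD 0.243, from 0.06 to 0.56) and in 6 of 6 WT animals (mean 0.29, SD 0.209, from 0.04 to 0.56). Over all 12 animals, Sdhb (log2FC 0.41, SE 0.163, adjusted p = 0.291), Sdhc (0.30, SE 0.117, adjusted p = 0.288) and Sdhd (0.38, SE 0.183, adjusted p = 0.440) each had an unadjusted p under 0.05 but were not called. The remaining subunit, Sdha, differed less (log2FC 0.12, SE 0.136, edgeR adjusted p = 0.843). It was higher in the high library in 4 of 6 GrnKO and 4 of 6 WT animals, so the rise of the sum was not shared evenly. Sdhc had 121, 127 and 167 CPM in GrnKO high, against 70.7, 92.2 and 130 CPM in GrnKO low (log2FC 0.48, SE 0.165, adjusted p = 0.333), and 84.0, 105 and 125 CPM in WT high, against 77.3, 101 and 114 CPM in WT low. Sdhd had a log2FC of 0.56 (SE 0.259) in GrnKO high against GrnKO low, and Sdhb one of 0.45 (SE 0.230) in WT high against WT low. Sums of the 12 microglia markers were 34300 to 42500 CPM in GrnKO high, 25600 to 32400 CPM in GrnKO low, 22300 to 43300 CPM in WT high and 15000 to 36000 CPM in WT low. These sums, too, were higher in the high than in the low library of every animal. How far the complex II levels follow them was not tested.

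**Figure D5:**
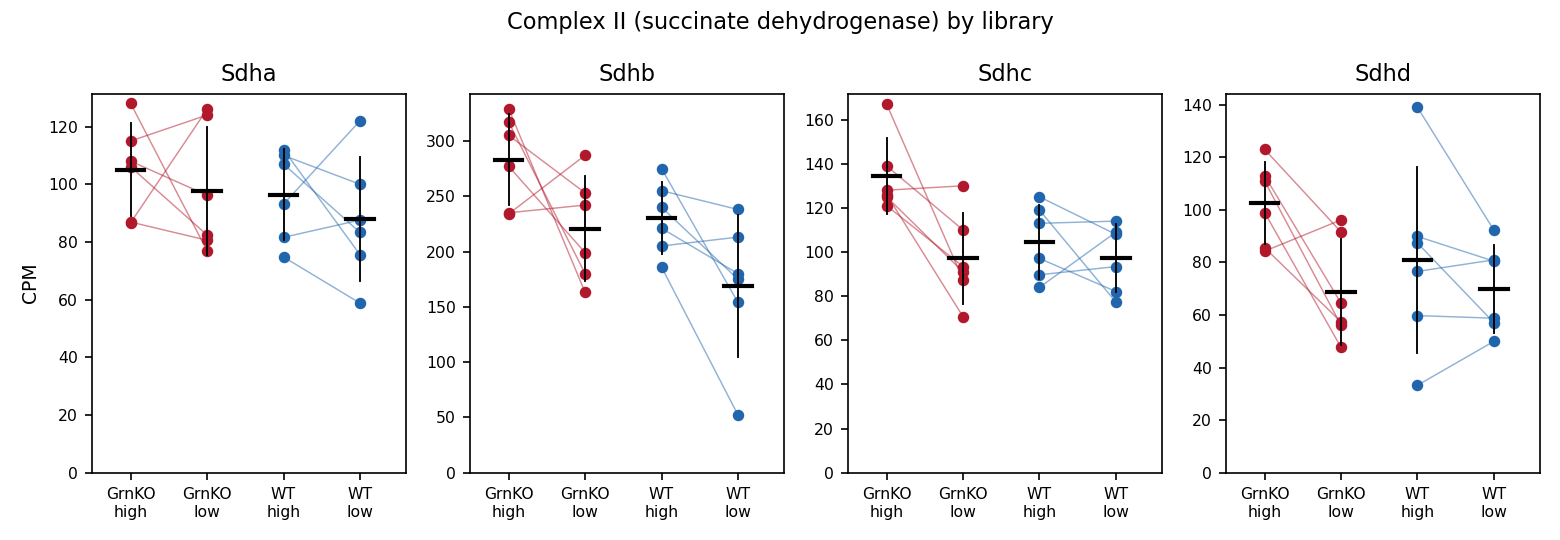
Levels (CPM) of the 4 complex II subunits in each library, by group; points are libraries, thin lines join the 2 libraries of an animal and black bars are mean ± SD (n = 6). Sdhc and Sdhd lie mostly higher in GrnKO high than in GrnKO low, with medians of 127 against 92.2 CPM and 105 against 61.0 CPM. Sdha differs less between these groups (log2FC 0.11, SE 0.192).

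Over the 12 animals together, 63 of 81 nuclear members had a positive log2FC in high against low libraries (median 0.12), and 0 were called, where 0.44% of all genes were called higher and 0.873% lower. At an unadjusted p under 0.05, 7 were higher and 0 lower, against 4.43% and 6.76% of all genes. Beside Cox6a2 and the complex II subunits these were Ndufa9 (log2FC 0.49, SE 0.175, adjusted p = 0.225), Ndufc2 (0.38, SE 0.147, adjusted p = 0.270) and Ndufs8, a core iron-sulfur subunit (0.30, SE 0.128, adjusted p = 0.349). Cox6a2 was more abundant in the high library in 5 of 6 GrnKO and 5 of 6 WT animals (log2FC 0.70, SE 0.192, edgeR adjusted p = 0.0677). A fixed block for the animal gave a call (log2FC 0.75, SE 0.158, edgeR adjusted p = 0.0206). Limma-voom gave a call both with a random block for the animal (adjusted p = 0.0136) and without a block (adjusted p = 0.0232). DESeq2, also without a block, gave one too (adjusted p = 0.022). Cox6a2 was called as well without animal 1 (adjusted p = 0.0396), 4 (0.0180) or 7 (0.0332) in edgeR. Without animal 1, where 0.976% of all genes were called higher, Ndufa9 was also called (log2FC 0.50, adjusted p = 0.0189). Without the 4 choroid-rich libraries, 4 members were called: Ndufa9 (log2FC 0.56, adjusted p = 0.0122), Ndufc2 (0.46, adjusted p = 0.0433), Ndufb5 (0.39, adjusted p = 0.0499) and Cox6a2 (0.75, adjusted p = 0.0454), beside 1.01% of all genes called higher. At the other end were Cox8b (log2FC -2.44, SE 1.34), Cox7a1 (-1.03, SE 0.826) and Cox6b2 (-0.71, SE 0.613). With a fixed block per animal, 11 nuclear and 4 mt-encoded members were higher and 0 lower at an edgeR unadjusted p under 0.05. Of all genes, 11.1% passed that rule in either direction.

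The difference between the lipofuscin effects of the genotypes was tested as an interaction, with 0 members and 0% of all genes called by edgeR. At an unadjusted p under 0.05, 0 members and 5.24% of all genes stood out in this fit, which held no term for the animal. With a fixed block per animal, 5 of 12 mt-encoded members were positive by that rule in edgeR. Among nuclear members, 2 were positive and 3 negative, beside 5.38% of all genes in either direction, and 0 members were called. In the main fit, the nuclear members had a median log2 difference of -0.16 (GrnKO effect minus WT effect, 26 of 81 positive) and the mt-encoded members one of 0.45 (12 of 12 positive). For Cox6a2 the difference was -0.25 (SE 0.380). The largest differences were those of Cox6b2 (0.93, SE 1.29), Atp5g2 (0.79, SE 0.455) and Cox7c (0.52, SE 0.409) on one side and Cox8b (-2.39, SE 2.99), Ndufv1 (-0.86, SE 0.470) and Cox7a1 (-0.77, SE 1.72) on the other. Among mt-encoded members they ran from mt-Nd4l (0.12, SE 0.837) to mt-Nd3 (0.66, SE 0.486). With any whole animal left out, the mt-encoded median stayed between 0.34 and 0.56, and without both libraries of animal 1 it was 0.36 (12 of 12 positive). Without the low library of WT animal 1 alone, which keeps its high library at 69310 CPM of mt-encoded members, it was -0.15 (4 of 12 positive). With the 4 choroid-rich libraries left out, the mt-encoded median was 0.31 (11 of 12 positive) and the nuclear median -0.26 (17 of 81 positive). At an edgeR unadjusted p under 0.05, 5 nuclear members were then negative and 0 positive. Of all genes, 7.33% passed that rule in either direction, and 0 members were called.

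Genes that build and serve the pathway were mostly not called. Of 51 tested assembly factors, 0 were called in any of the 6 comparisons, and 2 were higher and 3 lower in GrnKO low against WT low at an unadjusted p under 0.05, near the 5.07% and 5.12% of all genes. Sdhaf3, an assembly factor of complex II, averaged 5.55 ± 2.77 CPM in GrnKO low and 17.8 ± 8.95 CPM in WT low (log2FC -1.64, SE 0.497, adjusted p = 0.169). Coa3, an assembly factor of complex IV, averaged 285 ± 53.8 CPM in WT high and 193 ± 35.8 CPM in WT low (log2FC 0.57, SE 0.177, adjusted p = 0.239). Electron carriers (15 genes), regulators of the pathway (13), factors of mitochondrial DNA expression (26), the citric acid cycle (17) and mitochondrial ribosomal proteins (79) had 0 called members in each comparison. The medians of the mitochondrial ribosomal proteins were 0.09 in GrnKO low against WT low and 0.18 in WT high against WT low.

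Of 21 genes of mitochondrial transport and stress, 1 was called. Bnip3, an outer membrane receptor that marks mitochondria for removal by mitophagy, had 167, 219 and 378 CPM (lowest, median, highest) in GrnKO high, 88.4, 128 and 201 CPM in GrnKO low, 96.3, 117 and 153 CPM in WT high and 61.5, 87.0 and 127 CPM in WT low. GrnKO high lay above every WT high library. It rose in GrnKO high against WT high (log2FC 0.95, SE 0.187, edgeR adjusted p = 0.0219) and in high against low over the 12 animals (log2FC 0.64, SE 0.131, edgeR adjusted p = 0.00946). Of all genes, 0.135% were called higher in the former comparison and 0.44% in the latter. The call in the high bin was lost when animal 2, 3, 5, 6, 7, 8, 9 or 12 was left out (log2FC 0.82 to 0.98, edgeR adjusted p 0.0549 to 0.0914), with scaling by library size alone (0.0565) and without the sex label (0.0601). The call over the 12 animals was lost with scaling by library size alone (edgeR adjusted p = 0.054). Within GrnKO its level was the higher one in the high library in 6 of 6 animals (log2FC 0.84, SE 0.186, adjusted p = 0.0573) and was called with a fixed block per animal (edgeR adjusted p = 0.0304). Vdac2, a channel of the outer membrane, was more abundant in the high library in 6 of 6 GrnKO and 6 of 6 WT animals (log2FC 0.36, SE 0.117, adjusted p = 0.170). Of 16 tested genes of glycolysis, 1 was called in the low bin, where 0.27% of all genes were called higher. This was Pkm, the pyruvate kinase of most non-hepatic cells. It averaged 375 ± 102 CPM in GrnKO low and 143 ± 32.8 CPM in WT low (edgeR log2FC 1.39, SE 0.250, adjusted p = 0.00577). With any whole animal left out, its log2FC ran from 1.29 to 1.51 there, and from 0.46 to 0.82 in GrnKO high against WT high. Its interaction then ran from -0.92 to -0.58. In the low bin, 13 of the 16 had a positive log2FC (median 0.59), beside the median of all genes given above for that comparison.

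Many nuclear genes of oxidative phosphorylation are known targets of the transcription factors NRF-1, GABP (which binds ETS motifs) and YY1. RefSeq promoters on GRCm38.p6, from 250 bases before to 50 after the start, were found for 68 of the 81 nuclear members, and Cox6a2 is not among them. Each motif was searched on both strands, and none of the 3 contains another. The NRF-1 core CGCATGCG lay in 9 of the 68 (13.2%), against 2.07% of 27025 genes with a promoter in the table. The YY1 core AAGATGGCG lay in 7 (10.3%), against 1.64%, and the ETS core CCGGAAGT in 5 (7.35%), against 4.31%. A match is a description of these letters and not of binding. The promoters of Cox6a1 and Ndufa9 are shown as one example each of an NRF-1 core and of a YY1 core, in capitals. That of Cox6a1 lies at chr5:115348909-115349208 and that of Ndufa9 at chr6:126849095-126849394, both on the minus strand.
Cox6a1 promoter: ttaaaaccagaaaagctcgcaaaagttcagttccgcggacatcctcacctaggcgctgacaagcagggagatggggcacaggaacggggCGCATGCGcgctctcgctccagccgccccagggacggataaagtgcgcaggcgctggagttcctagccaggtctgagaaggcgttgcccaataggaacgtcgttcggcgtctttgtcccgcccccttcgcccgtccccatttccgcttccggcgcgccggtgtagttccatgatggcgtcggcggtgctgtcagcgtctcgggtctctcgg
Ndufa9 promoter: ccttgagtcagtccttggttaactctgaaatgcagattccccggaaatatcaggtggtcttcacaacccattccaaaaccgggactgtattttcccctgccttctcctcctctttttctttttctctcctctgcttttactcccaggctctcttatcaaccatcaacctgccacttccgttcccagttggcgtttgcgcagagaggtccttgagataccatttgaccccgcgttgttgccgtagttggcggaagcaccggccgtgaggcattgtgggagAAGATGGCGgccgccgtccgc
In the Ndufa9 promoter the YY1 core sits near the 3′ end of the window, just after the start, and in that of Cox6a1 the NRF-1 core sits upstream of the start.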

How the data were processed

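RNA was measured in 24 libraries of 1000 sorted cells from 12 animals. Per the submitters' processing notes, the tools named were R 4.5.1, edgeR 4.6.2, Salmon 1.10.1 and STAR 2.7.9a, on genome build GRCm39, with strand handling not given in the sources used here. The authors deposited estimated counts per gene, written with 2 significant digits, a normalized CPM table (a signal, the count over library size and factor) and a sample sheet with the library size (a count) and the normalization factor (a ratio). Sums of the count columns differed from the deposited library sizes by at most 0.22%, and 0 sample columns were unmapped. Estimated counts were rounded to whole numbers, although the design had assumed counts. Of 56980 genes, filterByExpr by group left 14090. A quasi-likelihood model (edgeR 4.0.16, R 4.3.3; TMM scaling, glmQLFit with robust estimation, glmQLFTest) was fitted to all 24 libraries with a term per group and the sex label. All tests were 2-sided and adjusted over all genes tested by Benjamini-Hochberg, and genes with an adjusted p under 0.05 were called; these are the adjusted p values of the text unless another tool is named. Levels are CPM with TMM-scaled library sizes. Each n is an animal. The sources used here name no molecular identifiers. Library depth sets the precision of low genes.

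The animal number pairs the 2 libraries of an animal by design, and the main fit held no term for it. The correlation of paired libraries' deviations from the group means ran from -0.0476 to 0.361 (median 0.112, 7214 genes), and the random block used a consensus correlation of 0.0872. Among libraries of a group, 0 pairs were identical (smallest chi-square per gene 94.8). Alternatives were other scalings, DESeq2 1.42.0, limma-voom (limma 3.58.1), no filter, no sex label, animal blocks and left-out libraries. The code was tested on simulated data. The members and gene lists were chosen with earlier results of these data known, and the role groups after their values were seen. The text names called members, the 3 nuclear members at each end of each comparison, the smallest p per complex, the extreme mt-encoded members, the isoform pairs of complex IV, other members with an unadjusted p under 0.05, called pathway genes with up to 2 more per list, and Grn; Ndufa1, Ndufb5, Ndufs8 and the cytosolic ribosomal proteins were named after their values were seen, and 1 member that this rule selects is not reported here. Motifs and the Cox6a alignment were computed in Python 3.11.15 with Biopython, and figures were drawn with matplotlib.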

Additional observations from a re-analysis of the deposited data

Results flagged for a closer look

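In groups of 6, the highest or lowest library was checked for a gap to its neighbour that exceeds Dixon's critical value; chance flags about 1 in 20 groups.

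WT animal 1 accounted for most flags, all as the highest library. In its high library the mt-encoded sum was 69310 CPM (next WT high library 22910 CPM), and in its low library 66690 CPM (next 25410 CPM). Its nuclear sum in the high library was 56780 CPM (next 29520 CPM). By gene, in the high and then the low library of this animal, mt-Atp6 had 9600 and 9090 CPM, mt-Atp8 40.7 and 58.3 CPM, mt-Co1 8470 and 8330 CPM, and mt-Co2 5030 and 6510 CPM. In the same order, mt-Co3 had 26000 and 22000 CPM, mt-Cytb 7340 and 6440 CPM, mt-Nd1 6210 and 6510 CPM, and mt-Nd2 1300 and 1890 CPM. Likewise mt-Nd4 had 4350 and 4620 CPM, mt-Nd4l 49.2 and 48.5 CPM, and mt-Nd5 678 and 712 CPM. For mt-Nd3, only the low library (492 CPM) was set apart. Nuclear members were set apart in the high library of this animal for Cox6b1 (1920 CPM), Cox6b2 (23.7 CPM), Cox7a1 (30.5 CPM), Cox8b (153 CPM) and Ndufv3 (847 CPM).

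Other animals were set apart less often. In GrnKO high, animal 2 was highest for the nuclear sum (35700 CPM, next 27340 CPM), Cox6a1 (2050 CPM), Cox6b1 (1420 CPM) and Ndufa2 (693 CPM), and animal 4 was lowest for mt-Nd4 (632 CPM, next 957 CPM). In GrnKO low, animal 8 was highest for Cox7a1 (24.7 CPM) and Cox8b (169 CPM). In WT low, animal 9 was highest for Cox4i1 (1480 CPM) and Ndufs8 (270 CPM). The high and low libraries of WT animal 1 and the low libraries of WT animal 9 and GrnKO animal 8 are those with the most choroid plexus transcripts; their part in these values was not tested.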

How the results depend on the processing

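The count of called members was recomputed under each alternative. For the run without the filter on low counts, the share of all genes called is not given here. Its added calls thus stand without a background. GrnKO low against WT low gave 1 called member, and 3 without the filter on low counts (Cox6a2, with Ndufa4 and mt-Nd2 called lower), 4 without the 4 choroid-rich libraries, and 1 to 2 when an animal was left out. GrnKO high against WT high gave 1, and 2 without the filter (Cox8b called lower), 2 without those 4 libraries, and 0 to 2 with an animal left out (0 without animal 2, 3, 5, 7 or 11). WT high against WT low gave 0, and 1 without the filter and 1 without those 4 libraries. GrnKO high against GrnKO low and the interaction gave 0, and 1 each without the filter (Cox8b). With an animal left out, these last 3 comparisons stayed at 0. High against low over 12 animals gave 0, and 2 without the filter, 1 with DESeq2, 1 with limma-voom, 1 with the random replicate block, 1 with the fixed replicate block, 4 without those 4 libraries, 1 without the low library of WT animal 1 (a setting added after the data were seen) and 0 to 2 with an animal left out. The replicate block, which pairs an animal's libraries, changed no other call of a member; for Bnip3 in GrnKO high against GrnKO low it moved the adjusted p under the threshold. The single reversed value was the interaction of Cox6a2 without animal 4, at a log2 difference of 0.03 (-0.25 with all animals, and -0.47 to 0.03 with an animal left out). The causes were not tested.

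Scaling by library size alone moved the median of all genes to between -0.20 and -0.15 and that of the nuclear members to 0.03 in GrnKO low against WT low, -0.05 in GrnKO high against WT high and 0.01 in WT high against WT low. Relative to all genes, the nuclear members kept a positive offset there. The spread between animals, with a common biological coefficient of variation of 1.08 over all genes, limits what 6 animals a group can show, and rounding of the deposited values to 2 digits limits small differences.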
